A study of Mus musculus with 4 samples.

Results

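Among the splicing events deposited for testes of Ptbp2-deficient and wild type mice, 230 were cassette exons longer than 80 nucleotides (nt) whose length is not divisible by 3. They were chosen by event type and length alone, with the change in splicing playing no part, and 12 genes held more than 1. The whole table held 741 cassette exons and 1223 events in 915 genes, so that 249 long cassette exons divisible by 3 and 262 of at most 80 nt remained for comparison. Of the 230 rows, 40 carried no gene name and took the name printed above them.

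RNA came from testes at postnatal day 25, from 2 mice labelled cKO, which carry a conditional knockout of Ptbp2, and from 2 mice labelled WT, with 1 library per mouse. All were C57BL/6 males. The promoter that drives the deletion, and so the cells that lose Ptbp2, is not given in the sources used here. Splicing was deposited as 1 change in percent spliced in (ΔPSI, in percentage points) per event, and expression as RPKM (read counts divided by gene length and by the size of the library) in each library.

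A cassette exon is spliced in or skipped as a unit. When its length is not a multiple of a codon and it lies within the coding sequence, skipping it shifts the reading frame, and the ribosome usually meets a premature stop codon soon after. A stop well upstream of the last exon junction exposes the transcript to nonsense-mediated decay, the surveillance pathway that degrades such RNAs. Exons whose inclusion brings in a stop, often called poison exons, act the other way round. Ptbp2 is an RNA-binding protein of the polypyrimidine tract binding family that mostly represses exons flanked by pyrimidine-rich sequence, and in the testis it is made in germ cells.

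The deposited ΔPSI has no replicate values, no coverage and no p-value, and its header does not say which genotype was subtracted. Changes are therefore given as positive or negative ΔPSI, with no error. Ptbp2 itself had 111 and 98.2 RPKM in labelled cKO libraries 1 and 2, against 65.7 and 66.6 RPKM in WT libraries 1 and 2. Both labelled cKO values exceeded both WT values, against a simple reading of a knockout, but RPKM over a whole gene does not check the loss of some of its exons. Over the whole table of 988 genes, the per-gene difference in log2(RPKM + 1) between labelled cKO library 2 and labelled cKO library 1 had a median of -0.70, and that between WT library 2 and WT library 1 a median of 0.08.

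Reading frames were predicted to end early in forms without the exon or in forms with it, and 4 examples of the first kind are printed to show where the frame ends once the exon is gone. Each sequence runs 5′ to 3′ from the last 15 coding bases before the new junction to the first stop in frame, which stands in capitals. They were read from the GENCODE M21 transcripts, an annotation of mm10, in which the exon was found by gene and length. The exon positions themselves are those of the deposited table, taken to be mm9. The skipped exon of Ccdc108, chr1:74978418-74978602 on the minus strand, has 185 nt. That of Acad10, chr5:122089133-122089314 on the minus strand, has 182 nt. That of Tulp2, chr7:52770788-52770926 on the plus strand, has 139 nt. That of Msl3, chrX:165110195-165110277 on the minus strand, has 83 nt.
Ccdc108: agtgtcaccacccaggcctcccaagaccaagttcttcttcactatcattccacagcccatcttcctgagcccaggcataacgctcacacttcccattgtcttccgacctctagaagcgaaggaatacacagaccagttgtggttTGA
Acad10: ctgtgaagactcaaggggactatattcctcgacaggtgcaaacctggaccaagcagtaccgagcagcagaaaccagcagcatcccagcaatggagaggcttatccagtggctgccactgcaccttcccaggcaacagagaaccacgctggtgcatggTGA
Tulp2: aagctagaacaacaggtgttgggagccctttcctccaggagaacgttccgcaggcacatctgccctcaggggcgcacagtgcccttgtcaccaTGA
Msl3: ctgtacgatgccaagttgggaTAG

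The second kind brings a stop with it, and 5 such exons are printed from their first base to the stop, again in capitals, to show how early in the exon the frame closes. The frame is that of the gene's longest complete coding transcript whose coding sequence could take the exon between neighbouring exons. The exon of Akap1 lies at chr11:88704904-88705010 on the minus strand and has 107 nt. That of Tmem63c lies at chr12:88427549-88427804 on the plus strand and has 256 nt. The exon of Magohb, at chr6:131241759-131241958 on the minus strand, has 200 nt. The exon of Baz2a, at chr10:127529516-127529906 on the plus strand, has 391 nt. The exon of 1700057G04Rik, at chr9:92248305-92248443 on the plus strand, has 139 nt.
Akap1: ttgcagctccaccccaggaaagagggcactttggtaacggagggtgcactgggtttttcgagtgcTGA
Tmem63c: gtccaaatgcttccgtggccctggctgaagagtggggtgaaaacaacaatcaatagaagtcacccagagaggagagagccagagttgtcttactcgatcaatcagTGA
Magohb: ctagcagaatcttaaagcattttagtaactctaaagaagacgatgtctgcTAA
Baz2a: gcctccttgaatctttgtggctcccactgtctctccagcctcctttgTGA
1700057G04Rik: ggagaggctgtcTAG

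The 230 exons changed in both directions in nearly equal numbers. ΔPSI was positive for 113 of them, against 38.3% of all 1223 events, negative for 112, against 59.4% of all events, and 0 for 5. Leaving out the zeros, 50.2% of the long frame-shifting exons were positive, compared with 52.7% of the long frame-keeping exons, 38.8% of the short exons and 27.3% of the other event types. The values ran from -57 to 57 with a median of 0. A change of at least 20 points was listed for 38 of them, or 16.5%, against 21.0% of all events. That share was 26.5% among the long frame-keeping exons and 23.3% among the short ones. The median absolute ΔPSI was 10 points, compared with 13 and 12 points in those 2 classes. These differences between classes were not tested, since exons are not replicates of a genotype and ΔPSI has no error. In absolute size, 58 exons changed by less than 5 points, 134 by 5 to under 20, 24 by at least 30 and 14 by at least 40, and the last were 7 negative and 7 positive.

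**Figure D1:**
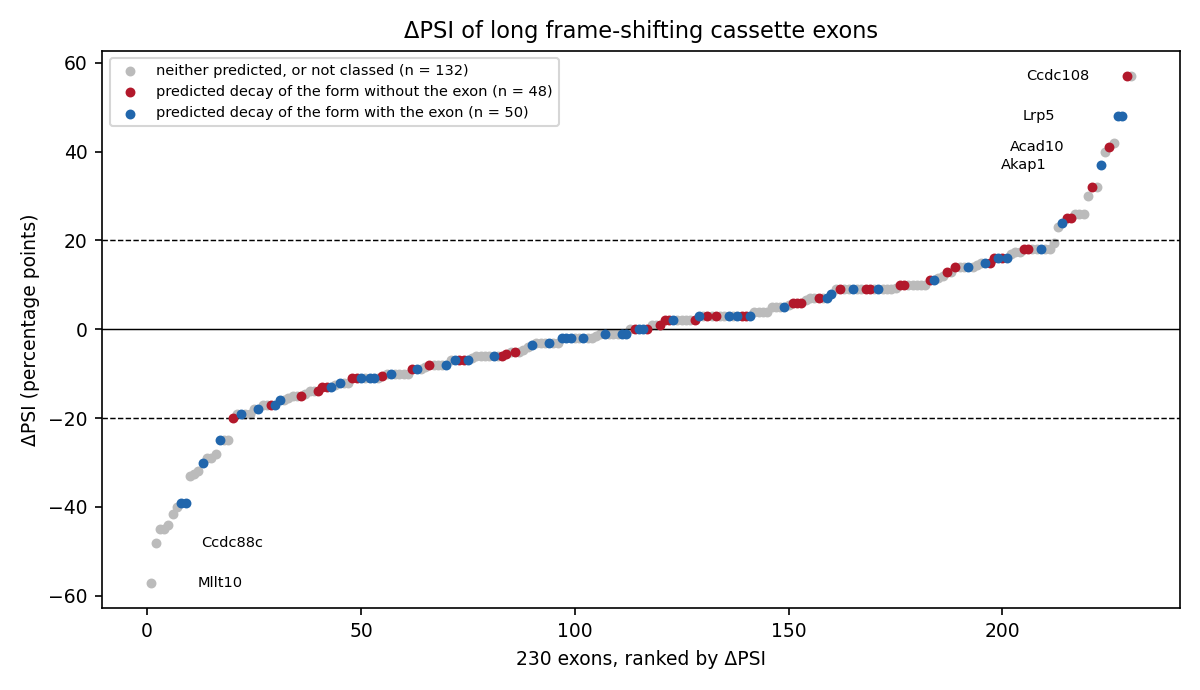
ΔPSI in percentage points (vertical axis) of the 230 long frame-shifting cassette exons in rank order (horizontal axis), 1 point per exon. Red marks 48 exons whose absence, and blue 50 exons whose presence, gave a transcript predicted to decay, and grey the remaining 132. The dashed lines mark 20 points in each direction, red points run between -20 and 57 and blue points between -39 and 48.

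**Figure D2:**
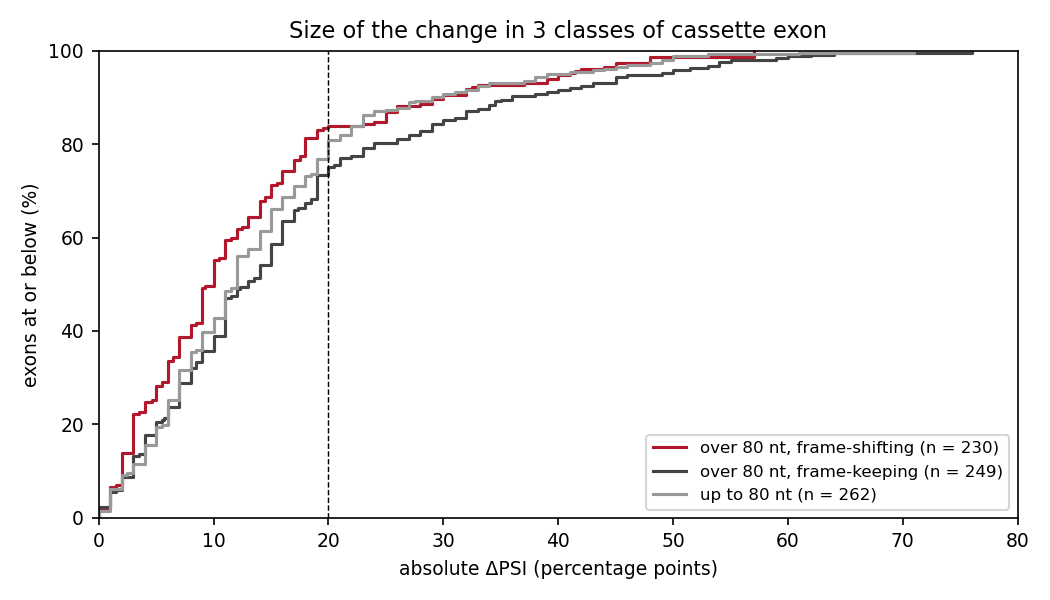
Cumulative share of exons in percent (vertical axis) at or below an absolute ΔPSI in percentage points (horizontal axis), for long frame-shifting (n = 230), long frame-keeping (n = 249) and short cassette exons (n = 262). The dashed line marks 20 points, and the frame-shifting curve lies above the frame-keeping one there.

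Exon length varied widely, with a median of 133 nt, quartiles of 104.5 and 175.25 nt and a range of 82 to 1480 nt. It left a remainder of 1 after division by 3 for 123 exons and of 2 for 107. The exons with positive ΔPSI had a median of 137 nt and those with negative ΔPSI one of 125 nt. Only 39 exceeded 200 nt and 7 exceeded 500 nt. The 5 longest changed by under 20 points: 4933421E11Rik (1480 nt) had a ΔPSI of 14, Snrnp70 (1360 nt) one of -1, Stk11 (1310 nt) one of 14, Matr3 (1093 nt) one of -2 and Lmbr1 (895 nt) one of 17.5. Snrnp70 encodes a protein of the U1 small nuclear ribonucleoprotein, Stk11 the kinase LKB1 and Matr3 a nuclear RNA-binding protein. At the length limit, the 5 exons of 82 nt (4933427D14Rik, Cdc23, Casc1, D11Wsu47e and Paip2) ranged from -18 to 14. Just below it, the 5 exons of 80 nt (Mtmr3, Pla2g6, Snrnp70, Son and Zscan21) ranged from -17 to 14, and the single exon of 79 nt, in Eif4e2, had a ΔPSI of -5.

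The positive end was led by Rangap1 and Ccdc108, both at 57. Rangap1 encodes the GTPase-activating protein of Ran in nuclear transport, and its 209-nt exon lay in the 5′ untranslated region (5′ UTR). Ccdc108, also known as Cfap65, encodes a protein of cilia and the sperm flagellum. Lrp5, a Wnt co-receptor, and Ccdc91, a partner of Golgi trafficking adaptors, followed at 48. Uba1, the ubiquitin-activating enzyme, had a ΔPSI of 42, Acad10, of the acyl-CoA dehydrogenase family, one of 41, and Wdr17 one of 40. Akap1, which anchors protein kinase A at mitochondria, stood at 37, and Ska1, a kinetochore protein, at 32. Zfand6 contributed exons at 32 and 26, and Carf, Mtdh and Ttc23 had ΔPSI of 30, 26 and 26. Tulp2, a tubby-like protein of the testis, and Msl3, a subunit of a histone acetyltransferase complex, both stood at 25, ahead of Tmem63c at 24 and 6720456H20Rik at 23.

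At the negative end, Mllt10, a partner of the histone methyltransferase Dot1l, had the lowest ΔPSI at -57, on an exon of 193 nt. Ccdc88c, which binds Dishevelled, followed at -48. Fbxo34 and 2210015D19Rik stood at -45, and Pbrm1, a subunit of a chromatin remodelling complex, at -44. Rab28, a small GTPase, had a ΔPSI of -41.5 and Orai2, a calcium channel subunit, one of -40. Cftr, the chloride channel, and 1700057G04Rik both stood at -39. Between -33 and -30 came Nsun6, an RNA methyltransferase, Synj2, an inositol phosphatase, Dzip1, a ciliogenesis protein, and Baz2a, which silences ribosomal DNA. Lrch3 and 9530077C05Rik stood at -29, Magi3, a junctional scaffold, at -28, and 1700028K03Rik, BC088983 and Ift20, an intraflagellar transport protein, at -25. 2900006K08Rik closed the group at -20. All 38 exons with a change of at least 20 points were also found in the smaller deposited splicing table, within 0.5 points. That table is labelled a subset, so the match is no independent check.

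The name frame-shifting described the length of these exons and only in part their place in the transcript. Of the 230, 192 (83.5%) matched 1 exon of their gene by length in the annotation, 22 matched several, 13 none, and 3 could not be matched by gene name and chromosome. Of the 192, 69 exons (35.9%) lay wholly within the coding sequence of a complete coding transcript. The share was 58.5% among the long frame-keeping exons and 63.7% among the short ones. The start codon lay in 17 exons and the stop codon in 8, 23 were 5′ UTR, 19 belonged to incomplete but to no complete coding transcripts, 35 to transcripts annotated as targets of nonsense-mediated decay and to no coding transcript, and 21 only to other non-coding transcripts. Of the 35, 4 (in Ankrd10, Ccdc91, Cftr and Gtf2a2) were also part of other non-coding transcripts. The decay-annotated class made up 18.2%, compared with 11% of the long frame-keeping and 6.51% of the short exons, and the 5′ UTR class 12.0%, compared with 4.50% and 6.98%. For 175 of the 192, the annotation also held a transcript that skips the exon. Base composition was alike in the 3 classes, with a median GC content of 48.5%, 50.0% and 47.4% and a median pyrimidine content of 48.5%, 49.2% and 45.8%.

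**Figure D3:**
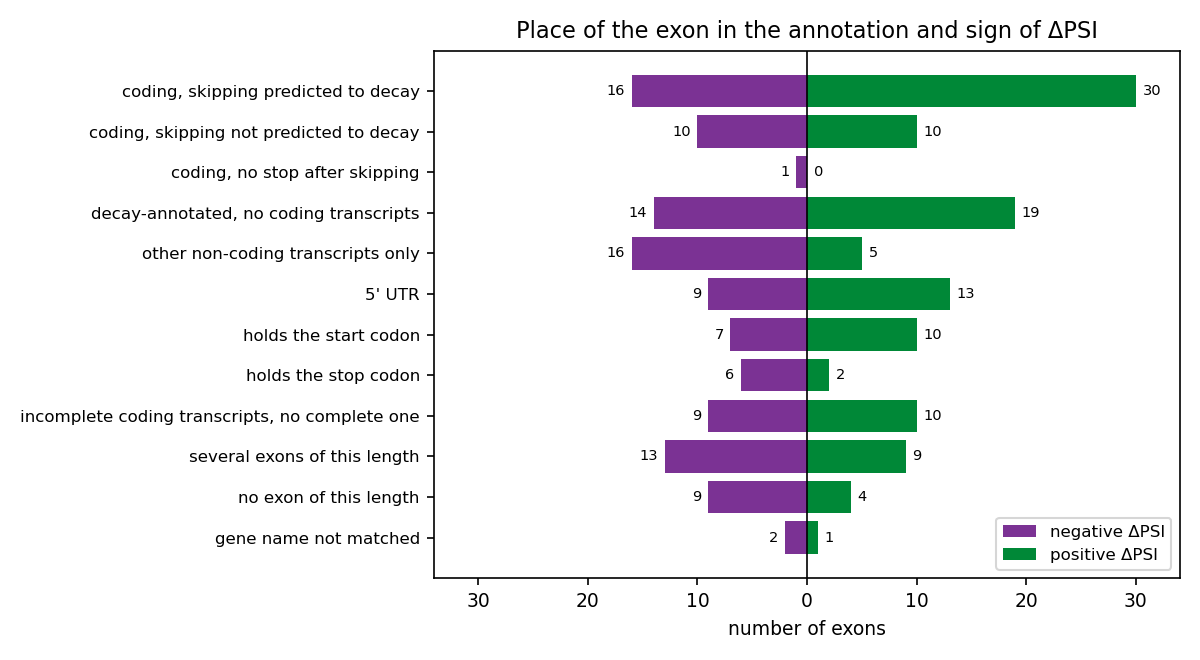
Number of exons (horizontal axis) with negative ΔPSI (left bars) and positive ΔPSI (right bars) in each class of place in the annotation (vertical axis). Coding exons whose skipping is predicted to decay had 16 negative and 30 positive values, and exons of other non-coding transcripts 16 negative and 5 positive.

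Skipping was predicted to send the transcript to decay for 48 of the 69 coding exons, in 46 genes. The prediction took the longest complete coding transcript, removed the exon, and asked whether the first stop in frame lay more than 50 nt before the last exon junction. The share was 69.6%, compared with 0.855% of long frame-keeping and 20.4% of short coding exons, a contrast that follows largely from choosing exons by length and frame. The new stop lay a median of 29.5 nt after the junction and at most 186 nt. A median of 29.8% of the codons was left, with a range of 2.65% to 86.06%, and 37 of the 48 kept under 50%. Among the 48, 30 had a positive ΔPSI, 16 a negative one and 2 stood at 0. The annotation already calls the skipping form of 17 of them a decay target, but calls it protein-coding for 10, lists it as another kind of transcript for 14 and holds none for 7.

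The coding exons with the largest changes showed how much protein the skipped form could still encode. In Ccdc108, loss of exon 3 of 33 left 86 of 1847 codons, with the stop 4989 nt before the last junction. Its exon 4, of 103 nt and with a ΔPSI of 18, left 122 codons. The 2 exons are neighbours, and the sequence printed above for Ccdc108 reads through the whole of exon 4 before it closes. In Acad10, loss of exon 9 of 21 left 401 of 1069 codons, and in Ska1, loss of exon 4 of 7 left 78 of 254. Tulp2 kept 66 of 562 codons and Msl3 36 of 525. The annotation holds protein-coding transcripts without the exon for both Tulp2 and Msl3, so their skipping forms need not use the start codon assumed here.

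The negative side of this class was smaller in size. Only 2900006K08Rik, at -20, reached 20 points, and its neighbouring exon of 494 nt had a ΔPSI of 16. Ehmt2, the histone H3 lysine methyltransferase G9a, had a ΔPSI of -17 on an exon whose loss left 1087 of 1263 codons. Plcd4, a phospholipase C, stood at -14, Acad8 at -13, Rnf41 at -10.5 and Hnrnph1, a splicing regulator, at -5.5. Stmn1, which destabilises microtubules, stood at -6, and there skipping left 6 of 149 codons. Further members of the class with small values were Catsperb, a subunit of the sperm calcium channel, at 7, Psma8, a testis proteasome subunit, at 3, Tsga10 at 2, Cct6b, a testis chaperonin subunit, at 2, and Tcp1, another chaperonin subunit, at 0.

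A further 20 coding exons were not predicted to send the skipping form to decay, and they split evenly into 10 negative and 10 positive values. Mtdh had the largest change among them, at 26. Eps15, an endocytic adaptor, stood at -15.5, Dgkh, a diacylglycerol kinase, at -12.5 and Ccna1, the germ cell cyclin A1, at 5. In this class a median of 88.3% of the codons was left. One more exon gave no stop in frame after skipping. The 8 exons that hold the stop codon held 6 negative values, among them Rab28, Lrch3 and Magi3, and skipping them exchanges the end of the protein. The 17 exons with the start codon had 7 negative and 10 positive values, led by Nsun6 at -33 and Ttc23 at 26.

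Inclusion, not skipping, was predicted to expose the transcript to decay for another 50 exons in 49 genes. Of the 35 exons of decay-annotated and no coding transcripts and the 21 of other non-coding transcripts, 53 could be placed into a complete coding transcript. The longest one of the gene whose coding sequence could take the exon between neighbouring exons was used. The stop met the same 50-nt criterion for all 34 decay-annotated exons placed and for 16 of the 19 others. For the decay-annotated exons this follows largely from choosing them by that annotation. In 42 of the 50 the stop lay within the exon and in 8 further downstream. ΔPSI was negative for 28, positive for 20 and 0 for 2. The exons of other non-coding transcripts as a class were negative for 16 and positive for 5, while the decay-annotated ones were negative for 14 and positive for 19.

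The exons with an inclusion stop that changed by at least 20 points numbered 8, with 4 in each direction. In Ccdc91 the stop came after 37 codons and in Lrp5 after 279, there beyond the end of the exon. Akap1 kept 580 codons before the stop and Tmem63c, of a family of mechanically gated ion channels, kept 773. On the negative side, Cftr kept 600 codons, 1700057G04Rik 165, 1700028K03Rik 28 and Baz2a 17. Below 20 points lay Magohb, a core protein of the exon junction complex, with a ΔPSI of 18 and a stop after 48 codons. Hipk1, a kinase, stood at 16, Rev3l, the catalytic subunit of DNA polymerase zeta, at 15 and Stk11 at 14, while Dlg1, a polarity scaffold, stood at -19, Pum2, a translational repressor, at -11 and Ap4e1, an adaptor complex subunit, at -10.

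Taking both kinds, 98 exons in 94 genes had 1 form predicted to decay. If ΔPSI were cKO minus WT, 36 of them would have shifted towards the decaying form in the mice labelled cKO and 58 away from it. Under the other reading the 2 numbers change places, and 4 exons at 0 moved neither way. With a change of at least 20 points there were 14 exons, 5 towards and 9 away under the first reading. In that reading Ccdc91, Lrp5, Akap1 and Tmem63c, with positive values on an inclusion stop, and 2900006K08Rik, with a negative value on a coding exon, were the 5. Ccdc108, Acad10, Ska1, Tulp2, Msl3, Cftr, 1700057G04Rik, Baz2a and 1700028K03Rik were the 9. Which reading holds was not tested, since nothing in the deposited files fixes it.

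Neighbouring coding exons can restore the frame when they are skipped together. Another listed event overlapped 35 of the 230 exons, most often a tandem cassette, for 28. Of the 37 overlapping pairs, 34 had the same sign, but the pairs share reads and are not independent. Of 24 tandem events that hold a long frame-shifting exon, 10 had both end exons listed, and in 3 of these the summed length was divisible by 3. In Ccdc108 the exons of 103 and 185 nt add up to 288 nt, and the tandem event had a ΔPSI of 39, between the 18 and 57 of its exons. In 2900006K08Rik the 145 and 494 nt add up to 639 nt, with a tandem ΔPSI of -11, although the exons had -20 and 16. In BC088983 a 160-nt exon at -25 and a 59-nt exon at 0 add up to 219 nt, with a tandem ΔPSI of -18. In Ccdc108 and 2900006K08Rik, where both exons are coding, skipping both removes whole codons, so the decay prediction for a single exon does not extend to the tandem form. BC088983 was not matched to the annotation, and its frame is not known here.

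Genes with more than 1 long frame-shifting exon numbered 12. Zfand6 (32 and 26), Higd1a (2 and 18), Lrrc27 (18 and 3) and Rev3l (14 and 15) had positive values throughout. Rnf41 (-17 and -10.5), Gtf3c4 (-11 and -6) and Abcc12 (-2 and -2) had negative ones. Rnf14 differed in sign, with 19.5 and -9, and the general transcription factor subunit Gtf2a2 had -1, -3.5 and 2. Rnf41 held 1 exon of each decay kind: inclusion of its 121-nt exon and skipping of its 272-nt exon both gave an early stop.

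Grouped by function, long frame-shifting exons were found in 2 of 36 genes of nonsense-mediated decay and the exon junction complex, Magohb (18) and Rnps1 (-6.5), among 5 with any event. Of 73 splicing factors, 18 had an event and 7 a long frame-shifting exon. These were Clk1, the kinase of SR proteins (-19), Hnrnph1 (-5.5), Matr3 (-2), Snrnp70 (-1), Rbm3 (0), Hnrnpa2b1 (1) and Hnrnpr (10), so that none reached 20 points. The 129 membrane traffic genes held 30 with an event and 4 with a long frame-shifting exon, all negative: Synj2 (-32.5), Eps15 (-15.5), Ap1m1 (-10) and Ap4e1 (-10). Of 150 chromatin and transcription genes, 21 had an event and 4 a long frame-shifting exon, which were Mllt10 (-57), Pbrm1 (-44), Ehmt2 (-17) and Gtf2i (6.5). Of 123 cilium and flagellum genes, 15 had an event, and the 5 long frame-shifting exons lay in Ccdc108 (57 and 18), Wdr52 (14), Odf2 (-1.5) and Ift20 (-25). Of 72 junction and polarity genes, 11 had an event and 2 such an exon, Magi3 (-28) and Dlg1 (-19). Neither the 40 known targets of PTB proteins, of which 10 had an event, nor the 111 actin and myosin genes, of which 13 had an event, held any. By events, 230 of all 1223 were long frame-shifting exons, against 2 of 5 in the decay list and 7 of 27 in splicing factors. Membrane traffic had 4 of 39, chromatin 4 of 34, cilium 5 of 27 and junction genes 2 of 19. PTB targets had 0 of 16 and actin genes 0 of 18. Of the 230 exons, 112 were negative and 16.5% changed by at least 20 points. No list was tested against the whole table.

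RNA levels could be followed for 26 of the genes with such an exon, or 12.0%, against 9.62% of all 915 genes with an event. The authors' deposited table lists 24 of the 26 (92.3%) as lower in cKO, against 93.6% of its 988 genes, and 2, Magi3 and Rnps1, as higher, against 6.38%. The RPKM values of the 2 genotypes did not overlap for any of the 26, against 100% of all genes in that table. These shares lay near those of the whole table, which holds genes that the authors had selected for a difference between these same libraries. Over the 24 genes listed as lower, the median RPKM was 14.3 and 10.8 in labelled cKO libraries 1 and 2, against 35.8 and 35.4 in WT libraries 1 and 2. Labelled cKO library 2 lay below labelled cKO library 1 in all 24. The median deposited log2 fold change of the 26 was -1.15, against -1.87 over the whole table.

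With limma and Benjamini-Hochberg (BH) adjustment over all 988 genes, 20 of the 26 were lower in cKO at an adjusted p under 0.05 (76.9%, against 83.9% of all genes) and none was higher (against 1.92%). At an unadjusted p under 0.05 in the same test there were 21 lower and 1 higher. The shares of all genes there are at least the 83.9% and 1.92% that pass after adjustment. The number called lower fell without WT library 1 or WT library 2, among the 26 genes and over the whole table. Without labelled cKO library 1 or labelled cKO library 2, the numbers called lower and higher rose, again in both. The calls left without WT library 1 were BC049762, 1700057G04Rik, Ms4a5 and Dgkh, and without WT library 2 the same genes except Dgkh. The other calls below were lost there, where the spread is that of the labelled cKO pair alone. Log2 differences moved little, as for Akap1, at -1.96 without WT library 1 and -1.78 without WT library 2, against -1.87. Since whole testis was sequenced, fewer cells of a type and less RNA per cell cannot be told apart. Of 33 markers of spermatids, the haploid germ cells, 25 were in the table. All 25 were lower, against 93.6% of the whole table listed as lower. Their RPKM summed to 323.9 and 75.55 in labelled cKO libraries 1 and 2, against 2229 and 2954 in WT libraries 1 and 2. Of 27 spermatocyte markers, 3 were in the table and lower. They summed to 166.9 and 99.48 RPKM in labelled cKO libraries 1 and 2, against 290.7 and 299.4 RPKM in WT libraries 1 and 2. Among these 3, Ccna1 is itself 1 of the 26 genes, and it did not pass the test. It gave 82.3 and 46.3 RPKM of the labelled cKO sums, and 116 and 118 RPKM of the WT sums. Of 14 macrophage markers, 3 were in the table and higher, summing to 54.68 and 68.99 RPKM in labelled cKO libraries against 28.99 and 29.86 RPKM in WT libraries. Of 18 Sertoli cell and 11 Leydig cell markers, 1 each was in the table, and both were listed as higher. Of 6 myoid cell markers, 1 was in the table, listed as lower, while no spermatogonia or endothelial marker was in it. None of the markers in the table was at 0, the lowest RPKM there being 0.20. Markers absent from it have no RPKM here. The part of these cell populations in the RPKM differences, and in ΔPSI, was not tested.

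**Figure D4:**
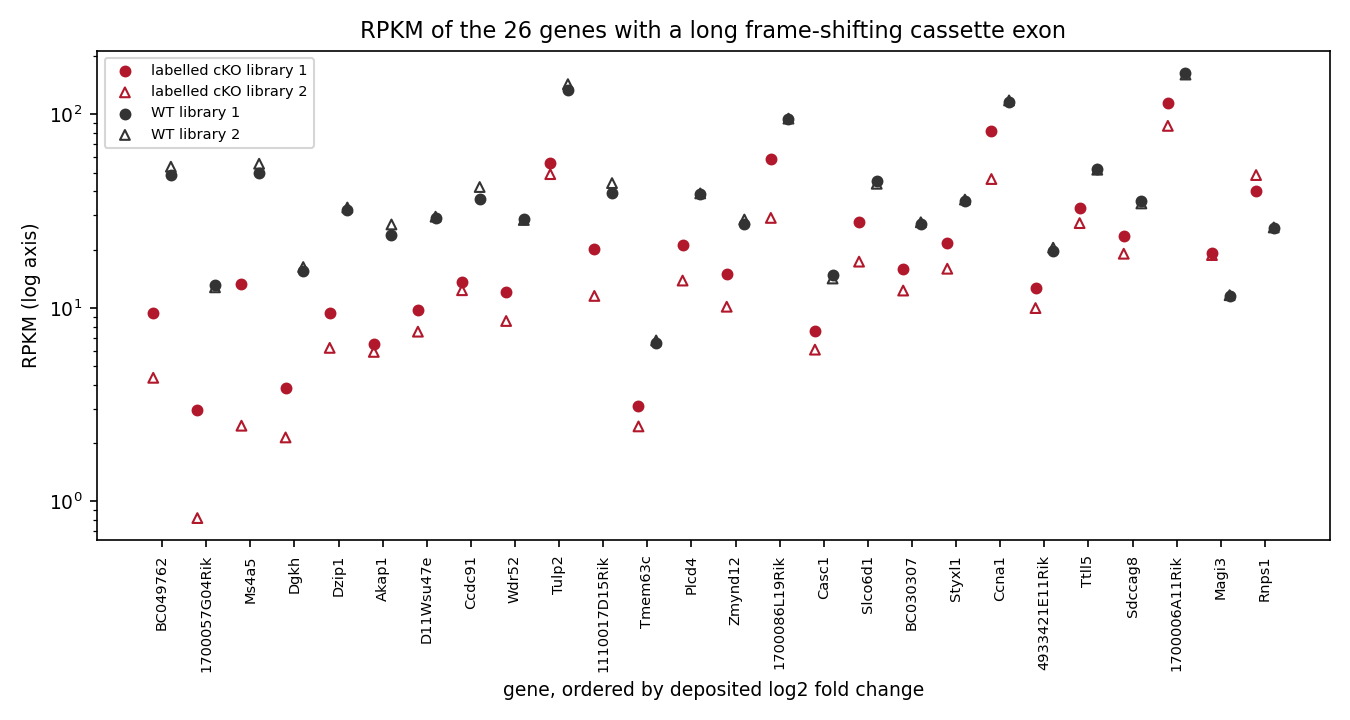
RPKM (vertical log axis) of the 26 genes (horizontal axis) in each library, with labelled cKO libraries in red to the left of WT libraries in black, circles for library 1 and triangles for library 2. The cKO points lie below the WT points for 24 genes and above them for Magi3 and Rnps1.

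Of the 26 genes, 7 had an exon whose inclusion was predicted to lead to decay. All 7 were listed as lower in cKO, against 93.6% of the whole table. Akap1 had 6.47 and 5.92 RPKM in labelled cKO libraries 1 and 2, against 23.7 and 26.9 RPKM in WT libraries 1 and 2. On the log2(RPKM + 1) scale, which understates changes of low genes, it fell by 1.87 ± 0.27 (SE; limma, BH-adjusted p = 0.0177, n = 2 each). Both cKO values were near each other and below both WT values, and its ΔPSI was 37. Ccdc91 had 13.6 and 12.3 RPKM in labelled cKO libraries, against 36.6 and 42.1 RPKM in WT libraries, with a log2 difference of -1.53 ± 0.27 (SE; limma, BH-adjusted p = 0.0177) and a ΔPSI of 48. Tmem63c had 3.11 and 2.44 RPKM in labelled cKO libraries, against 6.55 and 6.78 RPKM in WT libraries (limma, BH-adjusted p = 0.0255), and a ΔPSI of 24. Ms4a5, with a ΔPSI of 16, had 13.3 and 2.46 RPKM in labelled cKO libraries, against 49.7 and 55.5 RPKM in WT libraries (limma, BH-adjusted p = 0.0218), its labelled cKO library 2 being far below library 1. These were the 4 of the 7 genes with a positive ΔPSI. Without WT library 1 or WT library 2, the adjusted p (limma, BH) was 0.0678 and 0.106 for Akap1, 0.134 and 0.202 for Ccdc91 and 0.325 and 0.350 for Tmem63c, so these 3 calls were lost, and that of Tmem63c also with the replicate block (0.0986).

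The other 3 genes with an inclusion stop had a negative ΔPSI. 1700057G04Rik, with a ΔPSI of -39 on an inclusion stop, had 2.95 and 0.82 RPKM in labelled cKO libraries 1 and 2, against 13.1 and 12.8 RPKM in WT libraries 1 and 2. Its log2 difference was -2.38 ± 0.46 (SE; limma, BH-adjusted p = 0.0177, n = 2 each), and labelled cKO library 2 was the lowest of the 4. Slco6d1, an organic anion transporter with a ΔPSI of -18, had 27.6 and 17.3 RPKM in labelled cKO libraries, against 45.0 and 43.7 RPKM in WT libraries. Its adjusted p was 0.0453 by limma with BH adjustment, and the call was lost with a pseudocount of 0.1 (0.0627), a mean RPKM of at least 5 (0.0572), the replicate block (0.110), and without WT library 1 (0.356) or WT library 2 (0.350). Sdccag8, a centrosomal protein with a ΔPSI of -9, had 23.4 and 19.0 RPKM in labelled cKO libraries, against 35.8 and 34.6 RPKM in WT libraries, and did not pass (limma, BH-adjusted p = 0.0614).

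Another 6 of the 26 genes had a coding exon whose skipping was predicted to lead to decay. All 6 were again listed as lower, against 93.6% of the whole table. Tulp2 had 55.9 and 49.0 RPKM in labelled cKO libraries 1 and 2, against 134 and 143 RPKM in WT libraries 1 and 2, with a ΔPSI of 25. Its log2 difference was -1.39 ± 0.27 (SE; limma, BH-adjusted p = 0.0177, n = 2 each), and the call was lost without WT library 1 (0.192) or WT library 2 (0.231). BC049762, with a ΔPSI of -8, had 9.39 and 4.35 RPKM in labelled cKO libraries, against 48.3 and 53.6 RPKM in WT libraries. It fell by 2.80 ± 0.42 on the log2 scale (SE; limma, BH-adjusted p = 0.0177), on an exon whose loss left 22 of 219 codons. Plcd4 (ΔPSI -14) had 21.2 and 13.8 RPKM in labelled cKO libraries, against 38.6 and 39.0 RPKM in WT libraries. Zmynd12 (ΔPSI 15) had 14.9 and 10.1 RPKM in labelled cKO libraries, against 27.2 and 28.6 RPKM in WT libraries. Both passed the limma test, with BH-adjusted p of 0.0301 and 0.0285, but not with the replicate block (0.0705 and 0.0749) or without a WT library (0.289 to 0.328). 4933421E11Rik (ΔPSI 14) and 1700006A11Rik (ΔPSI 18) did not pass, with BH-adjusted p of 0.0507 and 0.0703 by limma.

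Nearly all of these genes were listed as lower, with a positive as with a negative ΔPSI. All 15 genes with a positive ΔPSI and 9 of 11 with a negative one were listed as lower. The median deposited log2 fold change was -1.15 in both. Over the 26 genes, Pearson's r between ΔPSI and the deposited log2 fold change was -0.022, a description across genes that share the same 4 libraries. All 13 genes with a predicted decaying form were listed as lower, whichever form it was, and so were 11 of the 13 others, against 93.6% of the whole table.

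**Figure D5:**
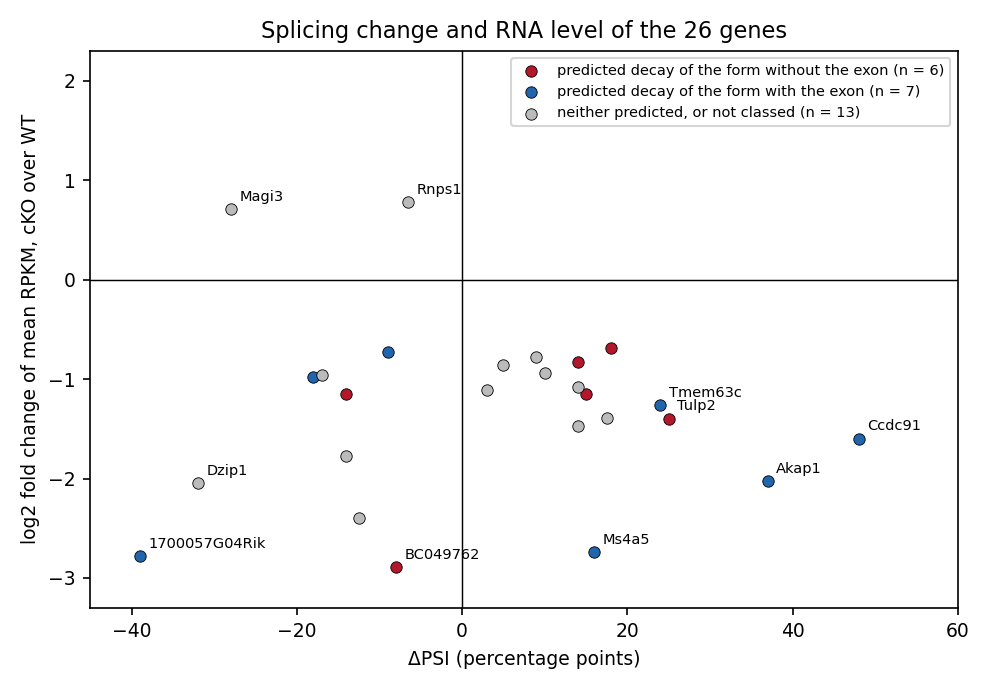
ΔPSI in percentage points (horizontal axis) against the authors' deposited log2 fold change of mean RPKM, cKO over WT (vertical axis), 1 point per gene (n = 26). Red and blue mark the 6 and 7 genes with a form predicted to decay without or with the exon, and all of these lie below 0 on both sides of the vertical line.

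The other genes of the table included the only 2 listed as higher. Magi3 had 19.1 and 18.7 RPKM in labelled cKO libraries 1 and 2, against 11.5 and 11.6 RPKM in WT libraries 1 and 2, with a ΔPSI of -28 on a 91-nt exon that holds a stop codon. Its log2 difference was 0.67 ± 0.26 (SE; limma, BH-adjusted p = 0.0616, n = 2 each), so the test was not passed. Rnps1, a protein of the exon junction complex, had 40.2 and 48.5 RPKM in labelled cKO libraries, against 25.7 and 26.0 RPKM in WT libraries (limma, BH-adjusted p = 0.0531). Upf1, the helicase of nonsense-mediated decay, was the only other gene of the decay list in the table. It had 41.3 and 35.3 RPKM in labelled cKO libraries, against 24.1 and 23.1 RPKM in WT libraries (limma, BH-adjusted p = 0.0662). Both cKO values exceeded both WT values in all 3 genes, in a table where the genotypes do not overlap for 100% of genes, and RPKM is a share of a library and does not show whether RNA per cell differed.

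Among the remaining genes, Dzip1, with a ΔPSI of -32, had 9.45 and 6.21 RPKM in labelled cKO libraries 1 and 2, against 31.9 and 33.0 RPKM in WT libraries 1 and 2. It fell by 1.94 ± 0.32 on the log2 scale (SE; limma, BH-adjusted p = 0.0177, n = 2 each). Dgkh, with a ΔPSI of -12.5, had 3.86 and 2.14 RPKM in labelled cKO libraries, against 15.4 and 16.2 RPKM in WT libraries (limma, BH-adjusted p = 0.0177). Ccna1, with a ΔPSI of 5, had 82.3 and 46.3 RPKM in labelled cKO libraries, against 116 and 118 RPKM in WT libraries, and did not pass (limma, BH-adjusted p = 0.0695). Its 2 cKO libraries were farther apart than its genotypes' nearest values. D11Wsu47e, Wdr52, 1110017D15Rik, 1700086L19Rik, Casc1, BC030307, Styxl1 and Ttll5 were all called lower, with BH-adjusted p of 0.0177 to 0.0498 by limma. Of these, 1700086L19Rik, Styxl1 and Ttll5 lost the call with a pseudocount of 0.1 and, with BC030307, with a mean RPKM of at least 5.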

How the data were processed

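Testis RNA was sequenced from 4 mice at postnatal day 25 (2 labelled cKO, 2 WT), and replicates are separate mice per the labels. The authors deposited RPKM per library and genotype means, a log2 fold change and an adjusted p-value for 988 genes, and ΔPSI as a score per splicing event, per the file headers. The sources used here name no aligner, splicing caller or filter; depth is unknown and no counting interval is given. The submitters' processing notes name mm9 and mm10.

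Length was taken as the deposited end minus the deposited start, and the starts printed here are 1 higher than deposited. Exons were matched to GENCODE M21 by gene name, chromosome, strand and a length found once in the gene, with no conversion of coordinates. Start differences between builds equalled those of the nearest matched cassette for 185 of 192. RPKM was tested with limma 3.58.1 (R 4.3.3) on log2(RPKM + 1) without a filter, a block or covariates, with BH adjustment and a threshold of 0.05. The script was tested on simulated data with 200 genes changed, equally up and down, and the same spread in both genotypes. The real genes were mostly lower in cKO, with the cKO libraries farther apart, so error rates in that setting were not checked. An exact two-sided permutation test of 2 against 2 mice cannot go below p = 0.333. Python 3.11.15, pandas 2.3.3 and matplotlib 3.10.9 were used.

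The exons, gene lists and tests were chosen with earlier results of these data known. Genes named are those whose ΔPSI reached 20 points in either direction, in the expression table or a gene list, with several exons, at the length limit, among the 5 longest, or with the largest changes in each decay class. Acad8, Hipk1, Pum2, Stmn1, Catsperb, Psma8, Tsga10, Cct6b and Tcp1 were singled out after their values were seen. The simulation of inclusion was added after the data were seen.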

Additional observations from a re-analysis of the deposited data

How the results depend on the processing

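No RPKM difference of the 26 genes changed sign under the alternatives tried. Of the 26 genes, 20 were called lower, against 16 with a pseudocount of 0.1, 14 with a mean RPKM of at least 5, 11 with a replicate block and 3 to 24 when 1 library was left out. Over the whole table, the pseudocount, the RPKM filter and the replicate block called 765, 629 and 622 genes lower, against 829 in the main test. Slco6d1, Styxl1, Ttll5 and 1700086L19Rik lost the call under both of the first 2 settings, and BC030307 under the second, which leaves Tmem63c untested. The number called higher was 0, and 0 to 2 when 1 library was left out. Over the whole table, 829 genes were called lower, with 353 to 925 when 1 library was left out. The 19 called higher became 5 with a mean RPKM of at least 5, 2 with the replicate block and 0 to 63 when 1 library was left out. Leaving out a library left 1 mouse in its group, which was assumed to vary like the other group. Same-numbered libraries had a correlation of -0.331 in their deviations from the group means, and nothing in the labels pairs them. A crossed replicate block, chosen after seeing the data, called 17 of the 26 genes lower and 0 higher, and 758 lower and 10 higher in the whole table.

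The number of exons was 230, and 372 when 1 was added to every length, or 38 with a change of at least 20 points. The share of positive ΔPSI was 50.2%, and 47.4% to 52.5% under the alternatives, so the sign in the majority turned with the setting. Under the alternatives 45 to 56 exons were predicted to decay when skipped. The cause of these differences was not tested. Precision is limited by 2 mice per genotype, a single ΔPSI per event of unknown sign convention, and unknown depth.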
